A study of Mus musculus with 11 samples.

Results

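The liver X receptors (LXR), the sterol transporters that they control and the proteins that remodel high-density lipoprotein (HDL) were followed as 10 genes in mouse liver. They were picked by name from the 36788 rows of the deposited table, and every one of them was measured. They are the receptor genes Nr1h3 (LXRalpha) and Nr1h2 (LXRbeta), the transporter genes Abca1, Abcg1, Abcg5 and Abcg8, and the HDL genes Scarb1, Lcat, Pltp and Lipc. Livers came from female wild-type C57BL/6 mice older than 12 weeks, by the labels (the methods of the study give its mice a mixed background with 129), and RNA was sequenced from whole liver. All animals, the controls included, had been ovariectomized and were fed a high-fat diet. One group (n = 5, numbered 1, 2, 3, 4 and 6) was injected with follicle-stimulating hormone (FSH), and the other (n = 6, titled OVX) received saline. There was no group with intact ovaries and none on normal chow, so the comparison concerns FSH in that setting alone.

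LXRs are nuclear receptors that bind oxysterols, pair with a retinoid X receptor (RXR) and switch on genes that move sterol out of cells. In the hepatocyte, ABCA1 loads cholesterol onto apolipoprotein A-I to start an HDL particle, whereas the ABCG5/ABCG8 heterodimer secretes sterol into bile. In plasma, LCAT esterifies HDL cholesterol, PLTP moves phospholipid between particles, hepatic lipase (the product of Lipc) trims HDL lipid, and SR-BI (the product of Scarb1) takes up HDL cholesterol esters at the liver surface.

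Abcg5 and Abcg8 are neighbours on chromosome 17 and are read outwards from one short stretch. In RefSeq (GRCm38.p6) Abcg5 begins at 84683011 on the minus strand and Abcg8 at 84683121 on the plus strand, which leaves 109 bases between them. A further Abcg8 start is annotated at 84676302, within Abcg5, and the table has a window for each Abcg8 start. The stretch between the neighbouring starts, chr17:84683012-84683120 on the plus strand, is shown because both genes beside it rose together. Capitals mark GATA boxes, searched as AGATAA on both strands.
Abcg5/Abcg8 stretch: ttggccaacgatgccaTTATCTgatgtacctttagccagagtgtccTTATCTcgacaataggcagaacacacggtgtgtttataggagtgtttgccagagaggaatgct
The AGATAA letters stood in 11.2% of all 32851 promoter windows of the RefSeq table (250 bases before to 50 after each start), and in 4 of the 11 windows of the 8 members matched there (1 each of Abcg5, Abcg8, Lcat and Lipc). The Abcg5 and Abcg8 windows share 209 bases and hold the same boxes, so they count 1 stretch in both. Abcg1 and Scarb1 were the members not matched.

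The Abca1 promoter is a textbook LXR target, and its 250 bases before the start are shown for comparison (chr4:53159896-53160145, minus strand). Capitals mark an E-box, CACGTG, and the stretch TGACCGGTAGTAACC, which lies 67 to 53 bases before the start.
Abca1 promoter: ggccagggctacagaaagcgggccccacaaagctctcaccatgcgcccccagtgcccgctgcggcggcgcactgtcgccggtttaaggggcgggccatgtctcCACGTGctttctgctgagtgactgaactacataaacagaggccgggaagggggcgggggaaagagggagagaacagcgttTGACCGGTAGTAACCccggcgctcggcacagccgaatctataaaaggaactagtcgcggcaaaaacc
LXR with RXR is known to bind direct repeats of the half-site AGGTCA with 4 bases between them (DR4). The exact repeat, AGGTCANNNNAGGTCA on either strand, stood in 0.0152% of all windows and in 0 of the 11 windows of the members. With 1 mismatch allowed in each half-site it stood in 1.75% of all windows and again in 0 of the 11. The marked Abca1 stretch, read on the other strand with 1 more base, has the DR4 layout with 4 bases between. Its half-sites differ from AGGTCA at 2 letters and at 1 letter, so the limit of 1 mismatch in each left it out. The single half-site AGGTCA stood in 16.3% of all windows and, among the members, in 1 of the 2 Lipc windows. The looser letters TGACCNNNNNTAACC, read off the Abca1 promoter itself, stood in 0.0487% of all windows and in no other member. CACGTG stood in 7.15% of all windows and among the members in Abca1 alone. The E-box, GATA and Abca1 letters were chosen after the sequences were seen, and a match is a description of letters and not of binding.

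Libraries held between 10801891 and 19909327 reads, and levels are in CPM, reads scaled to a total of 1000000 in each library. The hepatocyte markers fixed for the label check were abundant (summed level 81820 to 101200 CPM with FSH and 71510 to 102300 CPM with saline), and of these 6 genes Ass1 rose while Hnf4a and Fgb fell. Of all 12733 genes tested, 10.6% passed at an adjusted p under 0.05, and 5860 had a negative log2 fold change. All 10 Kupffer cell markers had lower means with FSH and 1 passed the test (Cd68, log2 fold change -0.78). Their summed level was 142.6 to 366.3 CPM with FSH and 222.4 to 431.4 CPM with saline. In whole liver, fewer cells of a type and less RNA per cell cannot be told apart. Of the endothelial markers 1 of 9 tested fell (Lyve1), which, like 1 of the 10 Kupffer markers, is near the 10.6% of all genes. Of the cholangiocyte markers 1 of 5 rose (Krt7), whereas the 8 stellate, 5 lymphocyte and 5 erythroid markers tested did not pass. Among the 5 adipocyte markers Fabp4, the only 1 tested, fell (-0.64), and Lep was at 0 in every library. Among the 5 acinar markers Pnlip and Cel were at 0 in every library. The only 1 tested, Cela2a, was at 0.87 CPM with FSH and 0.35 CPM with saline and did not pass (0.69, adjusted p = 0.0641). The 5 clock genes examined were chosen because they differed in earlier results of these data. All 5 differed without overlap, where 6.67% of all genes did, an outcome given by that choice. Dbp was at 83.0 ± 34.8 CPM with FSH and 4.30 ± 0.66 CPM with saline. The part of the lower macrophage marker means and of the clock gene differences in the results on the members was not tested.

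The study's stated aim for this experiment was to learn how FSH treatment affects the development of fatty liver in these mice. Here the sterol efflux and HDL genes were examined in the same livers. The pair that makes the biliary sterol transporter rose 1.71-fold (Abcg5) and 1.79-fold (Abcg8) with FSH. Pltp rose 1.76-fold. Lipc fell by 0.29 on the log2 scale. The transcripts of both LXRs, Abca1, Abcg1, Scarb1 and Lcat did not pass the test. All changes are given on the log2(CPM + 0.5) scale as FSH against saline with the standard error (SE), and tested with limma across 12733 genes with Benjamini-Hochberg adjustment.

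Thus 4 of the 10 genes passed at an adjusted p under 0.05, where 10.6% of all genes tested did. Of these, 3 were higher with FSH (6.19% of all genes) and 1 was lower (4.41% of all genes). With the added threshold of the study, an absolute log2 fold change over 1, 0 members passed, where 1.83% of all genes did. That count was 0 also by edgeR's quasi-likelihood test, DESeq2 and voom on the recovered reads, and 5 members had an unadjusted p under 0.05 by limma, 6 by edgeR, 6 by DESeq2 and 5 by voom, where 25.1% of all genes tested were under that limit by limma. For 2 members, Abcg5 and Abcg8, the groups did not overlap, as for 6.67% of all genes. The median log2 fold change of the 10 genes was -0.074 and that of all genes tested was 0.024.

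**Figure D1:**
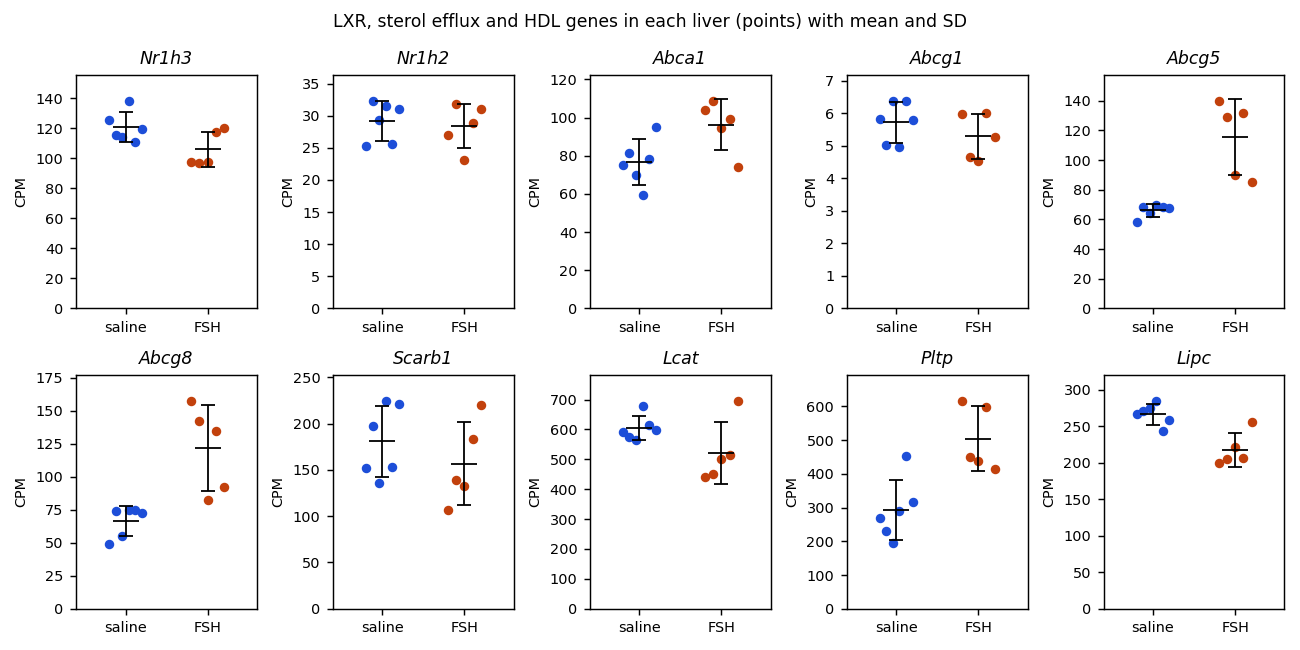
CPM of the 10 genes in each liver (points), with the mean and SD of each group (bars), for saline (blue, n = 6) and FSH (orange, n = 5), each vertical axis starting at 0. Abcg5 and Abcg8 are apart in the 2 groups, Pltp overlaps through 1 saline liver at 453.4 CPM, and the groups overlap for the other genes.

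Nr1h3, the LXR gene of liver, gut, fat and macrophages, was at 97.1 to 120.2 CPM with FSH and 111.0 to 138.6 CPM with saline. Its log2 fold change was -0.19 (95% interval -0.38 to 0.001, adjusted p = 0.200). Of the 5 FSH-treated livers 4 lay below the saline median of 117.6 CPM, though mouse 4 only just did (117.5 CPM), and the ranges overlapped. Nr1h2, the widely expressed LXR gene, was at 23.2 to 31.9 CPM and 25.2 to 32.4 CPM, with a log2 fold change of -0.04 (95% interval -0.26 to 0.18, adjusted p = 0.859). Its direction turned to 0.03 when FSH-treated mouse 3 was left out. The ratio of Nr1h3 to Nr1h2 within a library was 3.05 to 4.21 with FSH and 3.57 to 4.98 with saline. The difference in the mean log2 ratio was -0.15, which was within the spread between livers (exact permutation test, two-sided, p = 0.225). It was -0.077 without FSH-treated mouse 2 and -0.097 without saline mouse 1.

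Abcg5 was at 140.2, 129.1, 89.8, 132.1 and 85.5 CPM in FSH-treated mice 1, 2, 3, 4 and 6. With saline the lowest value was 58.5, the median 67.8 and the highest 69.9 CPM. Every FSH-treated liver was thus above every saline liver, with mice 3 and 6 nearest to the controls. The log2 fold change was 0.77 (SE 0.13, 95% interval 0.50 to 1.04, adjusted p = 0.00155). The exact permutation p was 0.00433, the smallest that the 462 splits into 5 and 6 allow.

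Abcg8 encodes the other subunit of the same transporter and was at 157.6, 142.3, 82.4, 134.5 and 92.6 CPM with FSH. With saline it ranged from 48.9 CPM over a median of 73.1 CPM to 74.6 CPM. Here too the groups did not overlap, and mice 3 and 6 again gave the lowest FSH values. These mice were also the FSH-treated ones nearest to saline for the clock genes Dbp (56.5 and 42.6 CPM) and Arntl (4.19 and 5.08 CPM, where the saline livers held 13.2 to 22.8 CPM). On the first principal component of all genes tested, mouse 6 lay at 7.93, nearest to the saline livers at -28.65 to -13.04. Mouse 3 lay at 24.71 there, inside the range of the other FSH-treated mice (19.45 to 28.78). The part of these differences in the values of Abcg5 and Abcg8 was not tested. The log2 fold change was 0.84 (SE 0.17, adjusted p = 0.00559), with an exact permutation p of 0.00433.

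The ratio of Abcg5 to Abcg8 within a library was 0.89 to 1.09 with FSH and 0.92 to 1.20 with saline. Its mean log2 difference of -0.072 was within the spread between livers (exact permutation test, two-sided, p = 0.403). Leaving out single livers moved that difference to between -0.022 (without saline mouse 1) and -0.119 (without FSH-treated mouse 3), and it was -0.030 without saline mouse 3 and -0.046 without FSH-treated mouse 1. Both genes also varied together inside the groups. Over the 11 livers, with the group means removed, Pearson's r was 0.915 (permutation p = 0.00091, 0.041 after Benjamini-Hochberg adjustment over the 45 pairs of members) and Spearman's rho was 0.964 (permutation p = 0.00044, adjusted 0.0198). Without FSH-treated mice 3 and 6, the livers farthest from the median of Abcg5, r was 0.892. Within the FSH group r was 0.968 (n = 5) and within the saline group 0.958 (n = 6), given as descriptions. In the GENCODE annotation, where Abcg8 starts at 84676302, the exons of the genes share 82 bases, 3.02% of those of Abcg5 and 2.19% of those of Abcg8, so a small part of the reads could be assigned to either if strand was not used.

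**Figure D2:**
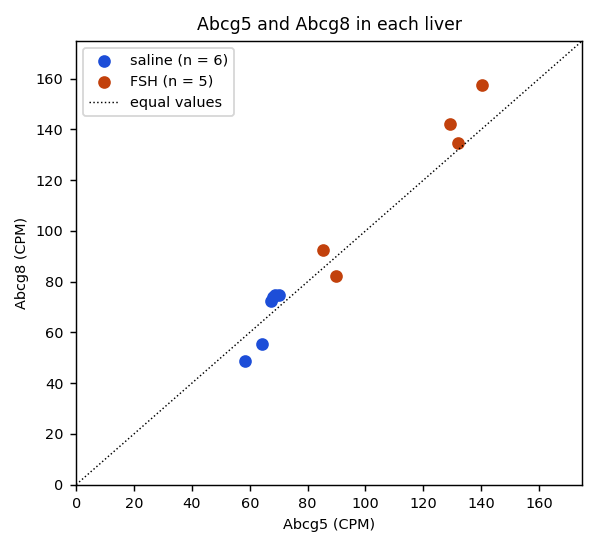
Abcg8 against Abcg5, both in CPM, 1 point per liver for saline (blue) and FSH (orange), with the dotted line at equal values. The saline points end at 69.9 CPM for Abcg5 and 74.6 CPM for Abcg8, and all FSH points lie above them and close to the line.

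Abca1, the transporter that starts HDL formation, was at 103.8, 108.9, 94.7, 99.1 and 74.1 CPM with FSH. The saline livers ranged from 59.6 CPM over a median of 76.8 CPM to 95.3 CPM. Of the FSH-treated livers 4 were above the saline median, and mouse 6 was below it. Its fold change was 1.25 and its log2 fold change 0.33 (SE 0.12, 95% interval 0.07 to 0.59), which did not pass after adjustment (adjusted p = 0.104). The exact permutation p was 0.0519. The adjusted p ranged from 0.0284 to 0.226 over 23 alternatives and was under the threshold in 3 of them: without FSH-treated mouse 6, without saline mouse 6 (0.0492) and with array weights (0.0411).

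Abcg1, which passes cholesterol to existing HDL and is known best from macrophages, was at 4.53 to 6.01 CPM with FSH and 4.95 to 6.39 CPM with saline. Its log2 fold change was -0.11 (95% interval -0.36 to 0.15, adjusted p = 0.630), and it was -0.059 without FSH-treated mouse 3 and -0.068 without FSH-treated mouse 2. The groups overlapped over most of their range.

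Pltp, the phospholipid transfer protein gene, was at 616.2, 450.1, 437.4, 598.7 and 414.1 CPM with FSH. With saline the lowest value was 194.5, the median 279.9 and the highest 453.4 CPM. Saline mouse 5 held that highest value, and it alone reached into the FSH range. The log2 fold change was 0.81 (SE 0.18, 95% interval 0.43 to 1.20, adjusted p = 0.0101), and the exact permutation p was 0.0173. Of the annotated exon bases of Pltp, 495 (19.3%) overlap exons of Ctsa on the other strand, and whether counting used strand is not given in the sources used here. Ctsa, the gene of lysosomal protective protein, went the other direction from Pltp, with a log2 fold change of -0.23 that did not pass (adjusted p = 0.0942).

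Lipc, the hepatic lipase gene, was at 200.0, 204.4, 221.7, 206.1 and 256.3 CPM with FSH. With saline it ran from 243.2 CPM over a median of 268.2 CPM to 284.7 CPM. All 5 FSH-treated livers lay below the saline median, and the groups overlapped through FSH-treated mouse 6 and saline mouse 5. The log2 fold change was -0.29 (SE 0.08, adjusted p = 0.0326), and the exact permutation p was 0.00866. This call was close to the threshold. It was lost in 10 of 23 alternatives, with adjusted p-values from 0.00762 to 0.101, among them each fit without one of FSH-treated mice 1 to 4 or saline mice 1 to 4.

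Lcat, which esterifies HDL cholesterol, was at 439.3 to 695.8 CPM with FSH and 566.2 to 677.3 CPM with saline (log2 fold change -0.23, 95% interval -0.47 to 0.003, adjusted p = 0.205). FSH-treated mouse 6 held the highest Lcat value of all 11 livers, while the other 4 were below every saline liver. Without that mouse the log2 fold change was -0.34 (adjusted p = 0.018). Scarb1, the HDL receptor gene, was at 106.9 to 219.9 CPM and 136.2 to 224.7 CPM, with a log2 fold change of -0.23 (95% interval -0.61 to 0.16, adjusted p = 0.484). It had the widest relative spread of the members with FSH (coefficient of variation 28.7%). Without FSH-treated mouse 1 the log2 fold change was -0.10 and without FSH-treated mouse 6 it was -0.36, and neither passed.

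**Figure D3:**
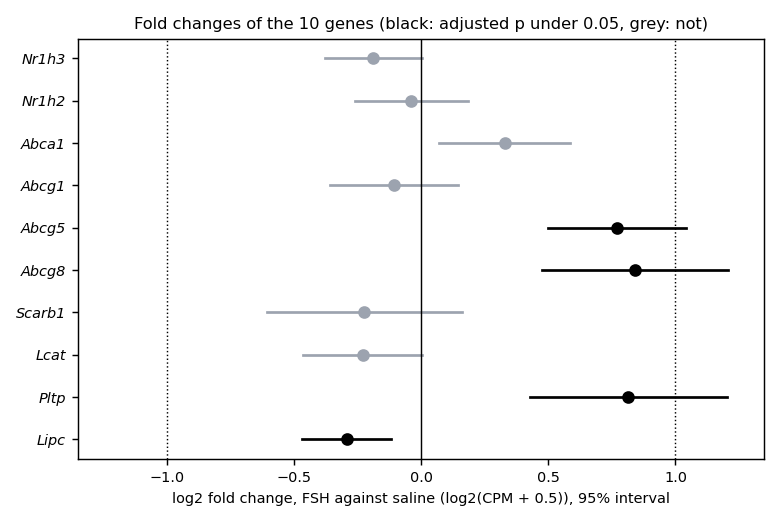
Log2 fold change of each of the 10 genes (points) with its 95% interval (lines), black where the adjusted p was under 0.05, with dotted lines at the study's fold threshold. Abcg5, Abcg8 and Pltp lie between 0.77 and 0.84, Lipc lies at -0.29, and no point passes the dotted lines.

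Between genes, levels were compared as CPM per kilobase of annotated exon. In saline livers the order was Lcat (449.8 ± 29.8 SD, n = 6), Lipc (123.8 ± 6.62), Pltp (114.1 ± 35.1), Nr1h3 (48.0 ± 4.02), Abcg5 (24.4 ± 1.56), Scarb1 (21.3 ± 4.53), Abcg8 (17.8 ± 3.06), Nr1h2 (8.70 ± 0.92), Abca1 (7.40 ± 1.15) and Abcg1 (0.78 ± 0.086). Among neighbours in this order the ranges of Lipc and Pltp overlapped, as did those of Scarb1 with Abcg5, of Scarb1 with Abcg8 and of Nr1h2 with Abca1. Lcat thus stood highest, followed by Lipc and Pltp, and Abcg1 stood lowest. In FSH-treated livers Pltp averaged 196.4 ± 37.5 per kilobase and Lipc 101.2 ± 10.7 (n = 5 each). Abcg5, at 42.5 ± 9.46 per kilobase, there reached the level of Nr1h3, at 42.2 ± 4.68.

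**Figure D4:**
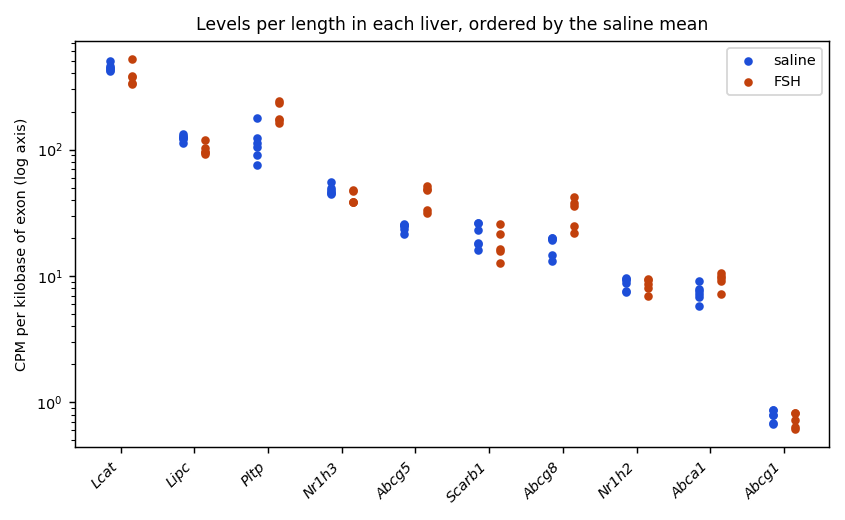
CPM per kilobase of annotated exon (log axis) in each liver for the 10 genes, ordered by their saline mean, with saline in blue and FSH in orange. Lcat lies highest at 449.8 in saline and Abcg1 lowest at 0.78, and Pltp, Abcg5, Abcg8 and Abca1 have FSH means above their saline means.

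The genes whose deviations from the group means were most like those of 3 members were also listed, by Pearson's r over the 11 livers, which share libraries and depth. For Abca1 these were Cnot6l (0.966), Dhcr7 (0.961) and Spns2 (0.954). For Abcg5 they were Slc23a1 (0.944), Pars2 (0.931) and Rarres1 (0.916), and for Nr1h3 they were Adck5 (0.919), Mon1a (0.908) and Scnn1a (0.907). For each of the 3 members these are the highest values among all genes tested, so high values follow from the selection, and they were not tested. Dhcr7, the only one of these genes described here, encodes the last reductase of cholesterol synthesis.

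Around the members, 66 other genes of the pathway were listed by role, and 63 were expressed enough to be tested. Of these, 13 rose, 5 fell and 45 did not pass, against the 10.6% of all genes called. Their median log2 fold change was -0.004. The count of 18 dropped to 11 when FSH-treated mouse 3 was left out, and in that fit the count over all genes dropped from 1350 to 909.

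Among 13 partners and cofactors of LXR, 2 rose and 1 fell, where 6.19% of all genes rose and 4.41% fell. Ttc39b, whose product promotes the breakdown of LXR protein, rose from 16.6 ± 1.31 to 24.3 ± 4.12 CPM (log2 fold change 0.52, adjusted p = 0.00937), with no overlap between the groups. Rxrg, the gene of an RXR partner, rose from 6.73 ± 1.12 to 9.72 ± 1.43 CPM (0.50, adjusted p = 0.0267). Nr0b2, the gene of the repressor SHP that bile acids induce, fell from 102.3 ± 44.2 to 37.9 ± 11.1 CPM (-1.32, adjusted p = 0.0142). The other 10, the corepressor and coactivator genes among them, did not pass. Of the enzymes of oxysterol ligands 4 of 6 could be tested and 1 passed, where 10.6% of all genes did. Cyp46a1, cholesterol 24-hydroxylase, was at 3.35 ± 0.61 CPM with FSH and 5.14 ± 0.73 CPM with saline (-0.56, adjusted p = 0.0167).

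Of 11 LXR target genes outside the efflux group, 6 rose and 1 fell, where 6.19% of all genes rose and 4.41% fell. Their median log2 fold change was 0.56, and that of all genes tested was 0.024. Rnf145, a ubiquitin ligase of the sterol-sensing machinery, rose from 16.3 ± 3.42 to 36.6 ± 6.22 CPM (1.16, adjusted p = 0.000402). Srebf1, whose SREBP-1c product drives fatty acid synthesis, rose from 223.2 ± 86.5 to 446.2 ± 29.7 CPM (1.09, adjusted p = 0.00474). Fasn, fatty acid synthase, rose from 377.5 ± 182.3 to 1583 ± 482.9 CPM (2.20), and Scd1, stearoyl-CoA desaturase, from 4910 ± 2077 to 14659 ± 5121 CPM (1.58). Fasn and Scd1 are also known targets of SREBP-1c. Lpcat3, a phospholipid remodelling enzyme, rose from 84.7 ± 7.86 to 126.6 ± 27.3 CPM (0.56, adjusted p = 0.00867). Named here after their values were seen, Cyp7a1, the rate-limiting enzyme of bile acid synthesis, also rose (1.06), and Mylip, a ligase that degrades the LDL receptor, was the gene that fell (-0.56, adjusted p = 0.0304).

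Of 18 HDL proteins and remodelling factors, 2 fell and 16 did not pass, a share near the 10.6% of all genes called. Apoa4, an apolipoprotein of chylomicrons and HDL, fell from 1704 ± 766.6 to 767.0 ± 260.6 CPM (-1.09, adjusted p = 0.0292). Saa4, the constitutive serum amyloid A of HDL, fell from 311.5 ± 95.5 to 189.4 ± 40.3 CPM (-0.69, adjusted p = 0.0248). Named here after its value was seen, Apoa1, the main HDL protein gene, was at 12722 ± 1282 CPM with FSH and 14675 ± 2308 CPM with saline and did not pass (adjusted p = 0.399).

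Of 17 sterol transport and esterification genes tested, 5 rose and 12 did not pass, where 6.19% of all genes rose and 4.41% fell. Pdzk1ip1, whose product binds the SR-BI adaptor PDZK1, rose from 6.77 ± 2.10 to 22.8 ± 6.54 CPM (1.68, adjusted p = 0.000326). Nceh1, a neutral cholesterol ester hydrolase, rose from 21.6 ± 2.52 to 35.7 ± 3.47 CPM (0.71, adjusted p = 0.000545), and Stard4, a sterol carrier, from 58.6 ± 14.9 to 107.7 ± 29.0 CPM (0.87, adjusted p = 0.0165). Smaller rises were measured for the lysosomal sterol carrier gene Npc2 (0.27, adjusted p = 0.0409) and for Stard5 (0.27, adjusted p = 0.0496).

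**Figure D5:**
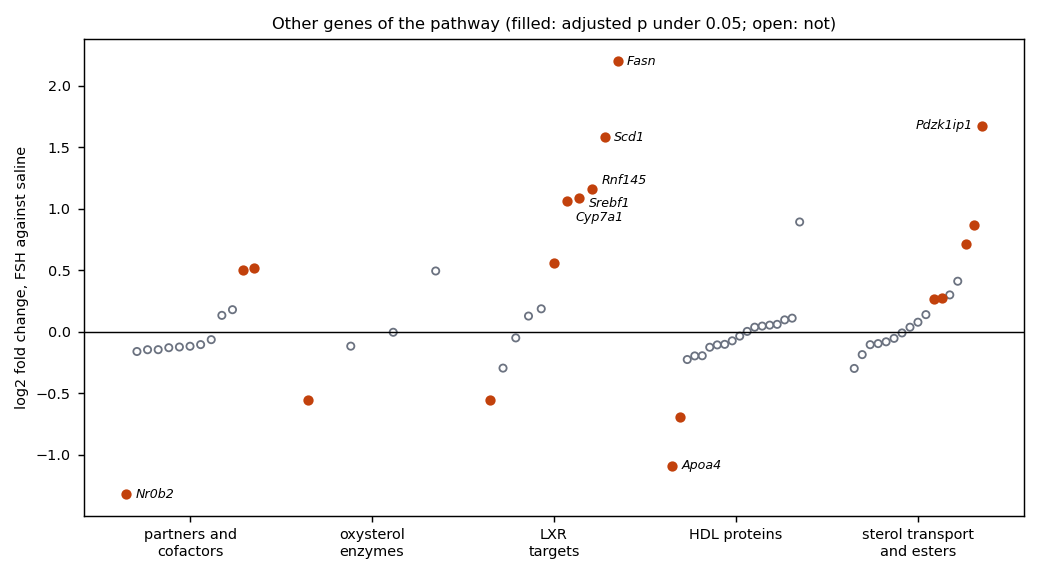
Log2 fold change (FSH against saline) of the 63 other pathway genes tested, 1 point per gene in 5 role groups, filled where the adjusted p was under 0.05 and named where the absolute log2 fold change also passed 1. The 11 LXR targets hold 7 filled points, up to Fasn at 2.20, and the 18 HDL proteins hold 2, both below 0. Of all genes tested 10.6% passed, and the difference between the groups was not tested.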

How the data were processed

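For 11 liver libraries, read in pairs on an Illumina HiSeq, the deposited values were CPM (each library sums to 1000000). The submitters' processing notes name mm10, FastQC 0.11.2, cutadapt, Trim Galore 0.3.3, STAR and RSEM. Annotation and use of strand are not given in the sources used here. Every value (100%) was a whole multiple of its library's smallest step within 0.01, and the recovered reads gave the depth, which was 10801891 to 19909327 reads (3 reads equal 0.151 to 0.278 CPM). Identifiers were matched without version, and 1233 stayed unnamed.

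The 12733 genes averaging 0.5 CPM or more were compared by limma 3.58.1 (trend, R 4.3.3) on log2(CPM + 0.5), with Benjamini-Hochberg adjustment and no covariate. Single values were tested over all 462 splits of the livers, and correlations with 100000 permutations. The functions were tested on simulated data with 200 changed genes. Alternatives were other pseudocounts (0.1 and 1 CPM), filters and scalings, no trend, array weights, voom, edgeR 4.0.16 and DESeq2 1.42.0 on recovered reads, a replicate block, and leaving out each library. No pair of libraries within a group agreed within sampling noise.

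The members and gene lists were chosen with earlier results of these data known. All members were named, and from each pathway group at most the 5 called genes with the smallest p; Cyp7a1, Mylip and Apoa1 were added after their values were seen. Labels do not say how replicates were kept apart, so p-values measure the spread between these libraries. Proteins were not analysed here.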

Additional observations from a re-analysis of the deposited data

How the results depend on the processing

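The fold changes of the 10 members were recomputed under 23 alternatives each. Of these 230 values, 215 kept their direction and their side of the threshold, 10 lost it (all Lipc), 4 gained it (3 for Abca1, 1 for Lcat) and 1 turned its direction. Abcg5, Abcg8 and Pltp passed in all 23, with adjusted p-values of at most 0.00657, 0.0204 and 0.0351. When single livers were left out, the log2 fold change of Nr1h2 ranged from -0.0828 to 0.0301, turning positive without FSH-treated mouse 3. The members whose groups did not overlap then numbered 2 to 4, with Lipc joining without FSH-treated mouse 6 or saline mouse 5, Lcat without the former and Pltp without the latter. Members passing numbered 3 to 6, the 6 without FSH-treated mouse 6. The pathway genes passing numbered 11 (without FSH-treated mouse 3) to 18. All genes passing, a count whose alternatives were added after seeing the data, numbered 804 (without FSH-treated mouse 1) to 1659 (without FSH-treated mouse 6). Fewer livers enter these fits, and other causes were not tested.

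Samples that share a number did not all deviate together (correlations 0.065, 0.356, 0.019, 0.137 and -0.066, and for number 2 alone the FSH library correlated best with its own number), and the labels do not say that a number marks a shared litter, batch or day, so the numbers were not taken to pair the samples. With a replicate block 3 members passed (the adjusted p was 0.0517 for Lipc and 0.131 for Scarb1, which was lower with FSH in 5 of 5 numbers), as did 17 pathway genes and 1210 of all genes. The difference in the log2 ratio of Abcg5 to Abcg8 was -0.097 within numbers (exact permutation p = 0.312) and that of Nr1h3 to Nr1h2 was -0.137 (exact permutation p = 0.375), where 5 pairs cannot go below 0.0625. TMM and median ratio scaling moved the median of all genes by -0.027 and -0.025.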

Other observations

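Among the 45 pairs of members, 10 had a permutation p under 0.05 for Pearson's r of the deviations from the group means, and 1 pair, Abcg5 with Abcg8, passed after Benjamini-Hochberg adjustment. Abca1 and Lipc varied in opposite directions over the 11 livers (r = -0.791, adjusted p = 0.108 by permutation), and r was -0.442 without the 2 livers farthest from the median of Abca1.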
